A study of Mus musculus with 9 samples.

Results

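The comparison was between mouse tumour organoids in which Apc had been restored for 2 days and the same organoids with Apc silenced. It used 6 of the 9 samples of the study, picked by their titles: 3 control samples labelled shAPC ctrl, kept in doxycycline, and 3 samples labelled shAPC 2d, taken 2 days after doxycycline had been withdrawn. All 6 came from organoids labelled AKP, and by the labels the groups differ in doxycycline, and through it in Apc, and in the time since its removal. The hairpin against Apc needs doxycycline, so the drug's removal and the return of Apc coincide in every 2-day sample and cannot be told apart from each other or from 2 days in culture. The labels number the samples of a group as technical replicates, and the p-values given here speak of the scatter among those samples, part or all of which may come from handling.

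Apc is a scaffold of the complex that marks beta-catenin for destruction. Without it, beta-catenin enters the nucleus, binds TCF and LEF factors and keeps Wnt target genes on, and intestinal cells stay in a crypt-like state. Outside the crypt, intestinal cells build a brush border, tight junctions and a large set of enzymes that detoxify and absorb what the gut lumen holds.

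The 6 libraries held 24143589 to 32153755 counts. Levels are CPM, counts scaled to a common library total with edgeR's cpm function, and changes are log2 fold changes of 2 days against control with their standard error (SE). A gene was called higher or lower at an adjusted p under 0.05 in edgeR's quasi-likelihood test. On the first principal component of the 6 libraries (70.2% of their variance) the controls lay between −27.2 and −26.3 and the 2-day libraries between 25.5 and 28.8. Epithelial markers were high in all 6 libraries: of 10 listed, 5 were called higher and none lower, and their summed level was 11146 to 14433 CPM in controls and 16893 to 18751 CPM at 2 days. Cdx2, an intestinal transcription factor, stood at 166 to 185 CPM, while Cdx1 was at or near 0 throughout. The 8 leukocyte markers summed to 0.23 to 0.612 CPM and the 9 fibroblast markers to 30.7 to 44.1 CPM, nearly all of it Acta2, with Lum at 0 and Col3a1 and Dcn at or near 0. In bulk samples, fewer cells of a type and less RNA per cell cannot be told apart.

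After 2 days, 1636 of 12535 tested genes were higher (13.1%) and 1333 were lower (10.6%). By size, 419 were higher by over 2-fold (3.34%) and 210 were lower by over 2-fold (1.68%). Apc itself had 6.8, 6.83 and 8.84 CPM with doxycycline and 31.8, 38.1 and 24.8 CPM after its removal. The lists of Wnt targets and of intestinal cell type markers are short: 99.1% of all tested genes belonged to none of them. Of the 419, 389 belonged to none (92.8%), and of the 210, 191 (91.0%), smaller shares than over all tested genes. Of the 62 genes lower by over 4-fold, 52 belonged to none (83.9%). Leaving out control replicate 2 cut the lower calls to 809, against 1184 higher calls, and removing a trend with GC content raised the lower calls to 2065.

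**Figure D1:**
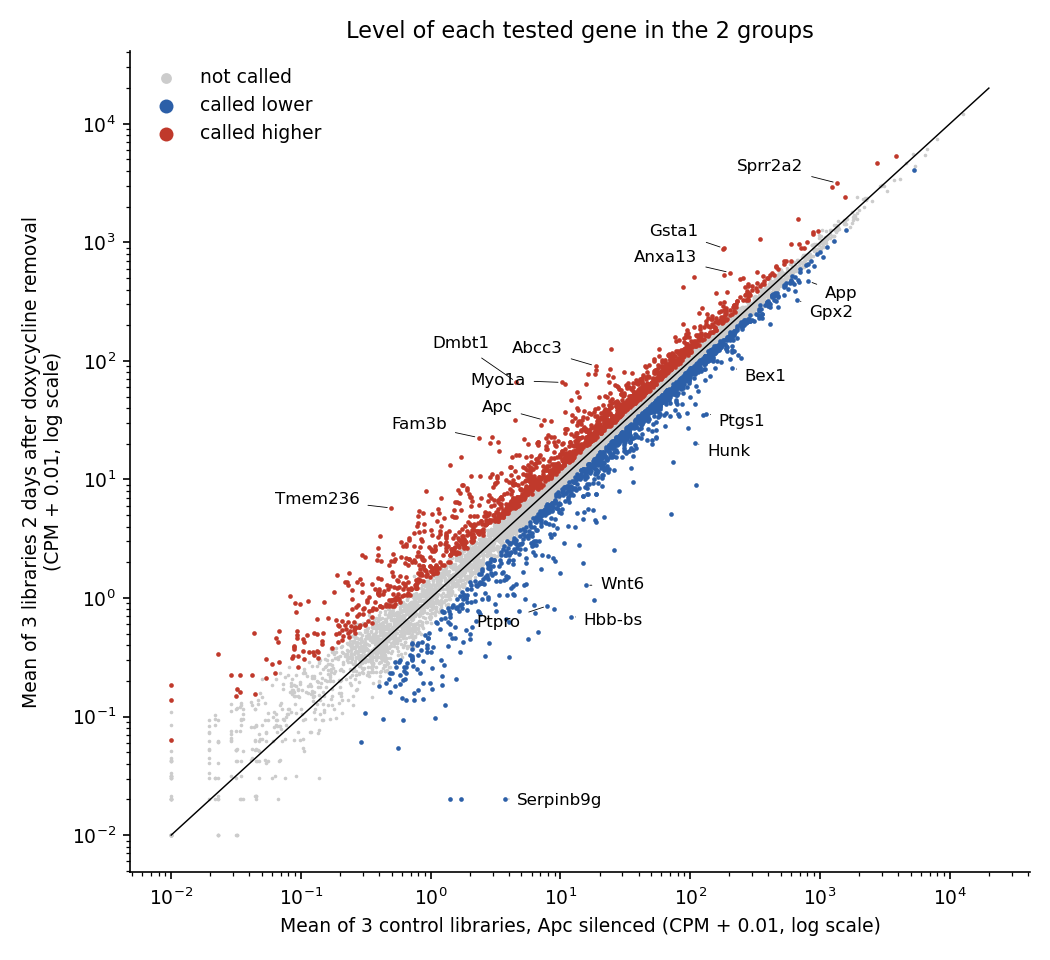
Mean level of each tested gene in the 3 control libraries (x axis) and the 3 libraries taken 2 days after doxycycline removal (y axis), in CPM + 0.01 on log scales. Red points are the 1636 genes called higher and blue points the 1333 called lower, and Serpinb9g lies with 2 other blue points near the floor of the 2-day axis.

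The largest rises outside the Wnt and cell type lists were in genes of varied roles. Dmbt1, a secreted mucosal scavenger receptor, had 3.24, 5.31 and 5.08 CPM in controls and 60.8, 78.3 and 60.8 CPM at 2 days. Fam3b, a secreted cytokine-like protein, went from 2.32, 2.64 and 2.06 CPM to 22.8, 20 and 24.6 CPM. For the largest rises and falls, no overlap between the groups was a condition of being named. Sptssb, a small subunit of serine palmitoyltransferase, the enzyme that starts sphingolipid synthesis, had 1.24, 1.21 and 1.78 CPM in controls and 12.1, 11.1 and 16.7 CPM at 2 days (log2 fold change 3.25 ± 0.23 SE, edgeR adjusted p = 8.2e-08). Adamts15, a secreted matrix metalloprotease, rose from 4.49 ± 0.477 to 32 ± 2.08 CPM (SD, n = 3; 2.82 ± 0.10, edgeR adjusted p = 1.2e-10). The mannose receptor gene Mrc1 stood at 3.36, 3.39 and 3.2 CPM in controls and at 20.6, 20.6 and 20.9 CPM at 2 days, with little spread in either group. Gjb1, a gap junction connexin, rose 5.19-fold and Anxa10, an annexin, rose 5.06-fold. Tmem236, Spats2l and Cyp2c65, the last a cytochrome P450, rose 11.5-fold, 4.93-fold and 5.88-fold.

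**Figure D2:**
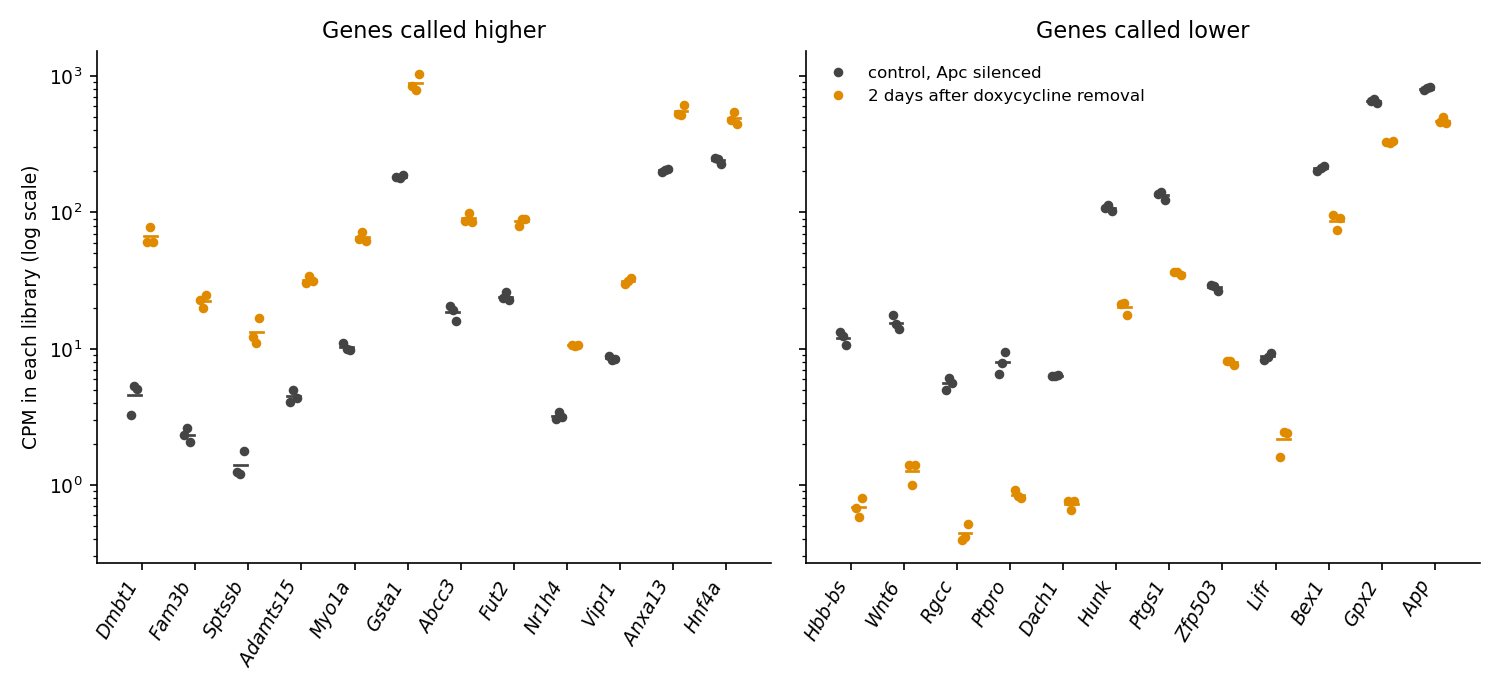
CPM of 12 genes called higher (left) and 12 called lower (right) in each library, on a log scale, with grey for the 3 control libraries, orange for the 3 libraries at 2 days and a line at each mean. In all 24 genes the groups do not overlap, which was a condition for naming many of them (39.3% of all tested genes did not overlap in either direction). Hbb-bs, Rgcc and Wnt6 fall by more than 10-fold.

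Detoxification genes were higher in large part. Of 56 tested conjugation enzymes, which attach glutathione, sulphate, glucuronic acid or similar groups to foreign compounds or, for carboxylesterases, cleave esters, 32 were higher and 1 lower, with a median log2 fold change of 0.92 against 0 over all tested genes. Gsta1, a glutathione transferase, had 181, 179 and 188 CPM in controls and 849, 787 and 1035 CPM at 2 days. Gsta4 went from 340, 342 and 356 CPM to 1061, 927 and 1189 CPM, and Gsta2 from 104, 105 and 109 CPM to 483, 450 and 586 CPM. These 3 were also among the 10 largest gains in CPM of called genes, predicted genes aside. Sult1c2, a sulphotransferase, rose 7.19-fold from a low 0.301 ± 0.0485 CPM (SD, n = 3; log2 fold change 2.85 ± 0.18, edgeR adjusted p = 3e-08). The member that fell was Gstm5, another glutathione transferase, named after its values were seen, from 23.8 to 12.3 CPM. Among genes with a mean of at least 5 CPM, fewer conjugation genes were tested and 19 were higher. The main filter also counted the 7-day libraries. A gene near 0 in controls could therefore be tested through its 7-day counts.

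Cytochrome P450 genes, which oxidise such compounds beforehand, were higher in 12 and lower in 1 of 45, with a median of 0.53. Cyp4f14 rose from 1.54 to 6.47 CPM and Cyp4b1 from 5.54 to 11.9 CPM. Most of the P450 genes were weakly expressed. With a mean of at least 5 CPM required, fewer were tested and 4 were called higher. With only the 6 libraries in the filter and fit, 3 were called lower. Of 39 ABC transporters 11 were higher and 3 lower. Abcc3, which exports conjugates and bile acids, had 20.6, 19.1 and 16 CPM in controls and 87.1, 99.6 and 85 CPM at 2 days (log2 fold change 2.29 ± 0.12, edgeR adjusted p = 1.9e-09). Abcg5 and Abcg8, the paired subunits of the sterol exporter, rose 4.74-fold and 4.08-fold, both from under 1 CPM. With the same minimum of 5 CPM, 7 ABC transporters were higher.

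Antioxidant genes were called in both directions. Of 33 Nrf2 targets and glutathione genes 9 were higher and 3 lower (1 lower without control replicate 2). Gpx2, the gut glutathione peroxidase, had 657, 681 and 638 CPM in controls and 327, 323 and 332 CPM at 2 days (log2 fold change −1.01 ± 0.09, edgeR adjusted p = 6.2e-07), and so was among the 10 largest losses in CPM of called genes. Me1, a source of NADPH, rose from 127 to 192 CPM, and Osgin1, an oxidative stress gene, from 17.1 to 27.3 CPM. Haem oxygenase 1, Hmox1, had 21.4 ± 2.05 CPM in controls and 20.6 ± 0.748 CPM at 2 days (SD, n = 3; edgeR adjusted p = 0.8).

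Retinoid and aldehyde dehydrogenase genes split in both directions, with 18 higher and 10 lower of 55 and a median of 0.02. Aldh1a1, which makes retinoic acid, fell from 198, 201 and 205 CPM to 110, 102 and 101 CPM. Stra6, the cell surface receptor for retinol uptake, fell 4.08-fold, while Dhrs9, a retinol dehydrogenase, rose 5.39-fold and Aldh3a1 rose 4.05-fold. Among genes with a mean of at least 5 CPM the counts were 10 higher and 6 lower.

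Brush border and tight junction genes had more higher than lower calls, while the other junction lists were called in both directions. Of 36 brush border and microvillus genes 14 were higher and 2 lower (1 lower among genes with a mean of at least 5 CPM). Myo1a, the brush border myosin that ties the membrane to the actin core, had 11, 9.96 and 9.87 CPM in controls and 64.2, 71.4 and 61.7 CPM at 2 days (log2 fold change 2.68 ± 0.11, edgeR adjusted p = 3.5e-10). Anks4b, which links microvilli at their tips, rose from 11 to 26.5 CPM and Eps8l3, of the actin-regulating Eps8 family, from 45.1 to 89.8 CPM. The 2 that fell were Pdzk1, an apical scaffold, from 3.11 to 0.882 CPM, and the intermicrovillar cadherin Cdhr2, from 130 to 85.2 CPM, although its partner Cdhr5 rose from 52.7 to 99.1 CPM.

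Of 22 claudins and other tight junction genes 13 were higher and none lower (median 0.37). At an unadjusted p under 0.05, edgeR had 16 higher and 0 lower, and limma-voom and DESeq2 each called 13 members in either direction. Cldn15, a pore-forming claudin of the intestine, went from 5.56, 4.45 and 3.55 CPM to 16, 17.7 and 14.9 CPM, and occludin, Ocln, from 67.4, 74.4 and 77.3 CPM to 104, 110 and 116 CPM. Cldn23 rose 3.12-fold and Cldn18 rose 2.86-fold from 0.707 CPM. Of 38 cadherins, catenins and desmosome genes 8 were higher and 6 lower (2 lower with a mean of at least 5 CPM), and of 7 gap junction and pannexin genes 2 were higher (1 on leaving out control replicate 2 or 2-day replicate 2) and 2 lower. Of 14 integrins 3 were higher and none lower (21.4% called, close to the 23.7% of all tested genes called in either direction). The collagen receptors Itga1 (1.51 to 4.78 CPM) and Itga2 (21.9 to 50.9 CPM) and the laminin receptor Itga3 (264 to 418 CPM) rose, while the shared partner Itgb1 stood at 341 ± 7.41 and 326 ± 11.5 CPM (SD, n = 3; edgeR adjusted p = 0.58).

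Annexins and cornified envelope genes had more higher than lower calls as well. Of 23 S100 proteins and annexins 10 were higher and 1 lower, among them Anxa13, an annexin of intestinal epithelium, from 199, 203 and 208 CPM to 530, 520 and 616 CPM. Of 16 small proline-rich and other cornified envelope genes 8 were higher and 3 lower (1 lower with a mean of at least 5 CPM). Sprr2a2, Sprr2a1 and Sprr2a3, near-identical copies whose counts are uncertain, rose 2.33-fold, 2.36-fold and 2.32-fold and were among the 10 largest gains in CPM. Tgm1, the transglutaminase that cross-links such envelopes, fell instead, from 704, 662 and 544 CPM to 419, 398 and 354 CPM (log2 fold change −0.71 ± 0.13, edgeR adjusted p = 0.0007). Krt4, a keratin of stratified epithelium, fell from 694 to 466 CPM, a call lost without control replicate 1 or 2-day replicate 3 (edgeR adjusted p = 0.051 in both). Krt19, a keratin of simple epithelium, rose from 2757 ± 549 to 4709 ± 470 CPM (SD, n = 3), the largest gain in CPM among called genes.

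Enzymes that build surface glycans were higher in 21 and lower in 10 of 66. Fut2, which adds the fucose of the H antigen, had 23.6, 26.1 and 22.6 CPM in controls and 79.6, 89.8 and 89.3 CPM at 2 days (log2 fold change 1.84 ± 0.08, edgeR adjusted p = 8e-10). Chst4, a sulphotransferase of mucin-type glycans, rose 5.22-fold, Mgat3, which adds bisecting N-acetylglucosamine, 2.23-fold, and Gcnt3, a mucin-branching enzyme, from 193 to 378 CPM. With a mean of at least 5 CPM required, 5 were lower.

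**Figure D3:**
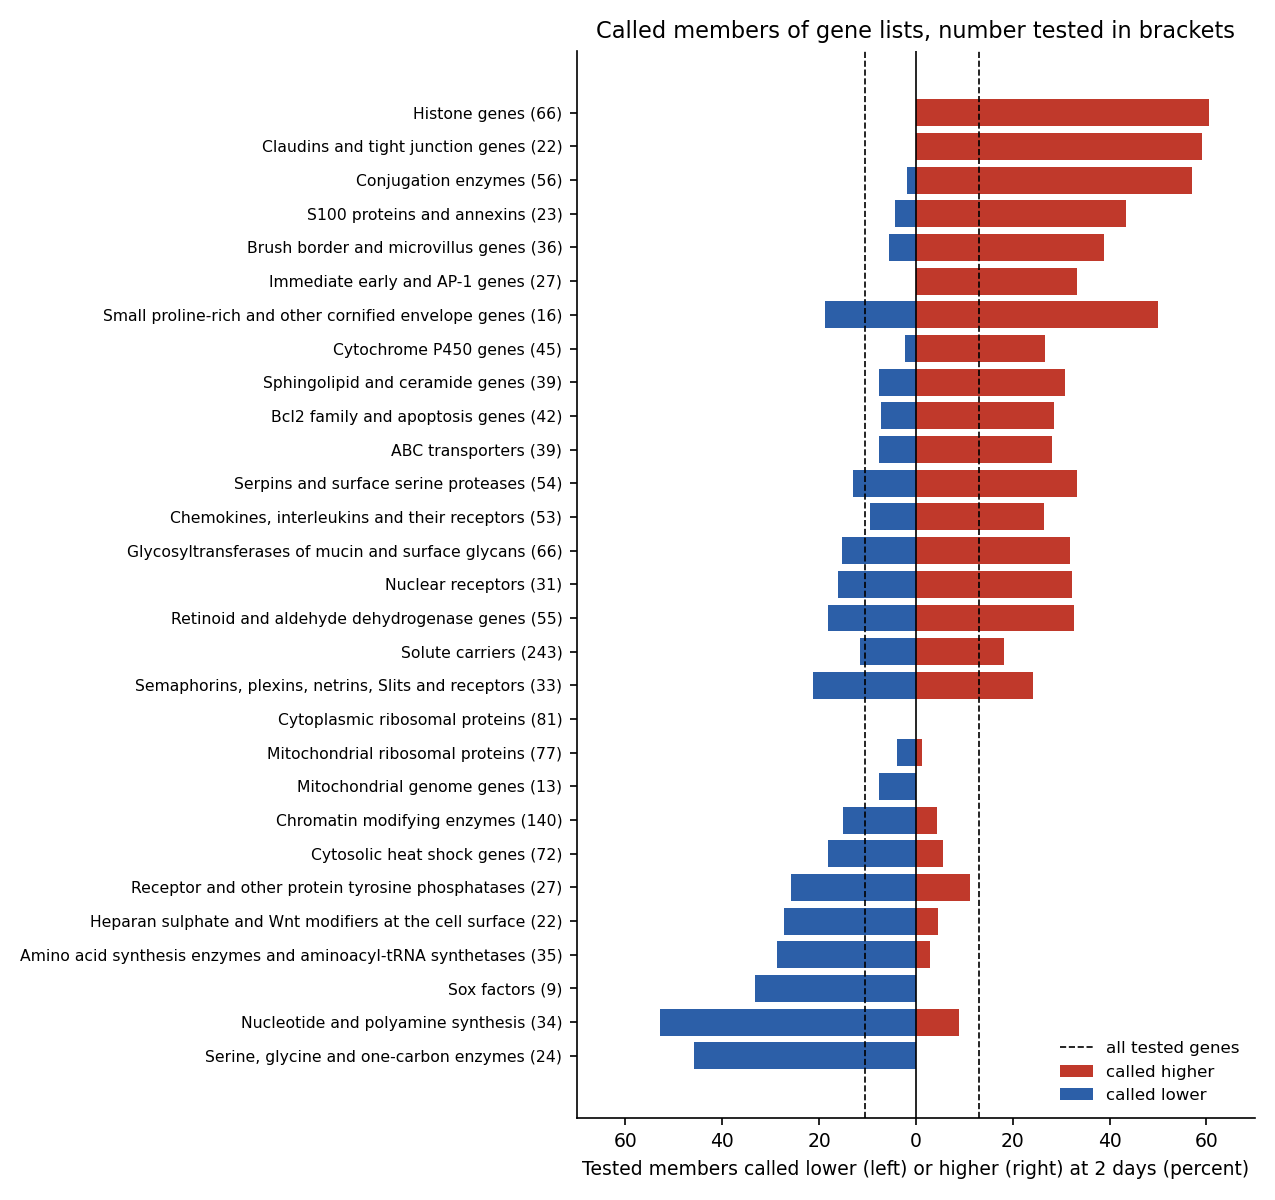
Share of tested members called higher (red, to the right) or lower (blue, to the left) in 29 gene lists, in percent, with the number tested in brackets and dashed lines at the shares of all tested genes, 13.1% higher and 10.6% lower. Histones, tight junction genes and conjugation enzymes reach furthest right, and the enzymes of nucleotide and of serine and one-carbon metabolism furthest left.

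Among lipid genes, rises were found in sphingolipid genes and in single genes of triglyceride synthesis and storage. Of 39 sphingolipid and ceramide genes 12 were higher and 3 lower (0 lower without 2-day replicate 1, 1 lower without control replicate 2 or 2-day replicate 3). Besides Sptssb, ceramide kinase, Cerk, rose from 32.3 to 59.4 CPM, and 2 enzymes of complex glycolipids rose, Gal3st1 from 4.22 to 9.26 CPM and B4galnt1 from 46.6 to 80.3 CPM. Of 43 genes of fatty acid and glycerolipid synthesis 8 were higher (18.6%) and 4 lower (9.3%), not far from the shares of all tested genes (13.1% and 10.6%). The lower count was 2 without control replicate 2 or 2-day replicate 1 or 3, and 9 with the GC trend removed. Dgat1, which makes triglyceride, rose from 12.8, 13.2 and 10.1 CPM to 23.8, 23.5 and 25.2 CPM, and the lipid droplet gene Cidec rose 5.97-fold from 0.385 CPM. Fatty acid synthase, Fasn, went the other way, from 866, 824 and 729 CPM to 574, 664 and 466 CPM (log2 fold change −0.51 ± 0.11, edgeR adjusted p = 0.0042).

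Nuclear receptors, which sense lipids, bile acids and steroids, were higher in 10 and lower in 5 of 31 (lower: 2 without control replicate 1, 3 without control replicate 2, 1 without 2-day replicate 3). Nr1h4, the bile acid receptor, stood at 3.05, 3.44 and 3.16 CPM in controls and 10.7, 10.4 and 10.6 CPM at 2 days, with no overlap and little spread. Fgf15, the hormone that this receptor is known to induce in the gut, rose from 6.51 ± 0.326 to 12.6 ± 0.349 CPM (SD, n = 3). Nr3c2, the mineralocorticoid receptor, rose 2.33-fold. Hnf4a, a central factor of intestinal identity, had 252, 247 and 227 CPM in controls and 477, 544 and 448 CPM at 2 days (log2 fold change 1.02 ± 0.10, edgeR adjusted p = 1.7e-06), and Hnf4g, named after its values were seen, rose from 3.44 to 7.1 CPM.

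Factors of intestinal identity, Hnf4a among them, divided evenly, 6 higher and 6 lower of 27 (3 lower with a mean of at least 5 CPM). Isx, an intestinal homeobox factor that restrains vitamin A uptake, rose from 35.9 to 65 CPM and Nr5a2, a nuclear receptor of the gut and liver, from 1.53 to 3.36 CPM. Grhl3, a factor of epidermal barrier formation, fell from 38.4 to 18.5 CPM. No Hox gene rose, and 1 of 8 fell (12.5%, close to the 10.6% of all tested genes). It was Hoxb4, whose call was lost without control replicate 2 (edgeR adjusted p = 0.059) or 2-day replicate 2 (edgeR adjusted p = 0.056). Of 9 Sox factors 3 fell and none rose. Besides Sox9, Sox21 went from 50.2, 52 and 52.3 CPM to 29.6, 29 and 29.4 CPM and Sox7 from 4.18 to 1.2 CPM, while the endoderm factor Sox17 stood at 5.13 and 5.91 CPM (edgeR adjusted p = 0.23).

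Transport genes were called in both directions. Of 243 solute carriers 44 were higher (18.1%) and 28 lower (11.5%), not far from the shares of all tested genes (13.1% and 10.6%). Without control replicate 2 there were 16 lower, and without 2-day replicate 1 there were 18. With a mean of at least 5 CPM 29 were higher. Of 97 ion channel genes 24 were higher and 15 lower. Slc7a9, the light chain of the transporter for cystine and basic amino acids, went from 1.08, 0.717 and 0.568 CPM to 4.59, 4.95 and 5.19 CPM. The water channel gene Aqp3 rose 5.2-fold, the sodium-hydrogen exchanger Slc9a4 3.34-fold and the bicarbonate cotransporter Slc4a4 2.62-fold. Slc14a1, a urea transporter, showed the largest fall among the solute carriers named, from 8.26, 11 and 10.5 CPM to 1.87, 1.45 and 1.5 CPM. The iron exporter ferroportin, Slc40a1, fell from 22.4 to 12.3 CPM and the metallothionein Mt1 from 87.9 to 53.9 CPM, whereas the zinc importer Slc39a4 rose from 93 to 170 CPM. Receptors for luminal and nervous signals changed as well: Vipr1, a receptor for vasoactive intestinal peptide, rose from 8.81, 8.27 and 8.45 CPM to 29.8, 31.4 and 33.1 CPM, and the orphan adhesion receptor Adgrg7 fell from 89.8, 94.8 and 101 CPM to 35.2, 39.7 and 33.1 CPM.

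The largest falls outside the Wnt and cell type lists were in genes of varied kinds. Hunk, a protein kinase, had 107, 114 and 102 CPM in controls and 21.4, 21.5 and 17.7 CPM at 2 days (log2 fold change −2.41 ± 0.10, edgeR adjusted p = 5.8e-10). Ptpro, a receptor-type tyrosine phosphatase, went from 6.49, 7.86 and 9.44 CPM to 0.919, 0.831 and 0.798 CPM. Rgcc, a regulator of the cell cycle, fell 12.4-fold, and the Wnt ligand gene Wnt6 fell 12.1-fold from 17.6, 15.1 and 14 CPM to 1.41, 1 and 1.41 CPM. The transcription cofactors Dach1 and Cited4 fell 8.63-fold and 4.28-fold. Dpp6, a partner of potassium channels, fell from 13.8 to 2.77 CPM, Cpn1, the catalytic subunit of carboxypeptidase N, from 9.02 to 2.03 CPM, the delta opioid receptor Oprd1 from 5.39 to 1.29 CPM and the collagen Col14a1 from 5.23 to 1.27 CPM. Zfp503, a zinc finger repressor, fell too, from 29.5, 29 and 26.5 CPM to 8.08, 8.2 and 7.61 CPM.

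An adult and an embryonic beta-globin gene fell, while other red cell genes were at or near 0 throughout. Hbb-bs had 345, 428 and 299 counts in controls and 22, 17 and 26 at 2 days, a ratio of 17.5 with a 95% counting interval of 13.6 to 22.8. Hbb-bh1 had 263, 312 and 219 counts and then 31, 21 and 24. Over the 3 libraries the alpha-globin genes Hba-a1 and Hba-a2 each had 8 counts in controls and 4 at 2 days, too few for the test. The 6 erythroid markers in the table summed to 1.06 to 1.74 CPM in controls and 1.18 to 1.59 CPM at 2 days, and Gata1 was at or near 0 in all 6 libraries.

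Of the 15 largest falls 12 had a promoter window, and these are shown where they carry the letters of the TCF and LEF core, CTTTGAT, on either strand. The windows run from 250 bases before to 50 after a RefSeq start (GRCm38.p6). In Dach1 it lay after the start, and before the start it was found in Sp5, a transcription factor and Wnt feedback gene, on the plus strand (chr2:70474673-70474922), 104 bases before the start, and Tnfrsf19, a TNF receptor family member and Wnt target, on the minus strand (chr14:61037988-61038237) in the second of its 2 windows, where the reverse complement ATCAAAG begins 202 bases before the start. Capitals mark the match in these 250 bases before the start.
Sp5: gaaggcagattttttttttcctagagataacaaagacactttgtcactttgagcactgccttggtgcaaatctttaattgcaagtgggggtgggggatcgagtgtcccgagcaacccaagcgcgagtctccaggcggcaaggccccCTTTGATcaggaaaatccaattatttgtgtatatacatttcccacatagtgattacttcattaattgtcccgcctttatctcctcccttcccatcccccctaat
Tnfrsf19: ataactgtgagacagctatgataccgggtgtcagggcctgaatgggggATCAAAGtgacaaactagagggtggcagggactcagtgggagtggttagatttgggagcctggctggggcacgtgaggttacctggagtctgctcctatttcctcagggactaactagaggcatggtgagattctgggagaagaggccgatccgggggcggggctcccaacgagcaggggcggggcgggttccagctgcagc
Sp5 had 26.1, 28.5 and 22.4 CPM in controls and 2.69, 2.35 and 2.49 CPM at 2 days, and Tnfrsf19 had 109, 109 and 114 CPM and then 8.67, 10.2 and 8.23 CPM. Of the genes with a window, the core was present in 13 of 152 called lower by over 2-fold (8.55%), in 9 of 309 called higher by over 2-fold (2.91%) and in 295 of 9571 tested genes (3.08%), with 3.73% of all 32851 windows. The shorter CTTTG, which is part of the core, was in 59.9% of the first set, 61.8% of the second and 51.5% of tested genes, so it did not set the falling genes apart from the rising ones. A match is a description of these letters and not a bound site.

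Several changes came as blocks of neighbouring genes. Among tested genes in chromosomal order, 12 runs of at least 3 neighbours were called in the same direction by over 2-fold, 8 of them higher and 4 lower, with 49 genes in all. The runs were looked for after values had been seen, their members are mostly copies of 1 gene family, and reads shared between copies make single counts uncertain. The upward runs held 6 Ces2 carboxylesterase genes on chromosome 8, from Ces2a (14 to 31.2 CPM) to Ces2g (7.73 to 19.3 CPM), with the highest ratio in Ces2e (5.74-fold). On chromosome 3 there were 6 Clca genes, whose proteins are secreted regulators of chloride channels. Clca3b went from 22.5, 27.2 and 23.9 CPM to 121, 141 and 114 CPM, Clca3a1 rose from 1.95 to 7.58 CPM, and Clca4a and Clca4b rose 2.97-fold and 2.91-fold. On chromosome 9, Gsta4, Gsta1, Gm3776, Gm10639 and Gsta2 rose together. Gm3776 (180 to 874 CPM) followed Gsta1 closely in every library. The downward runs included the X-linked genes Bex1, Bex2 and Bex4, brain-expressed signalling adaptors, of which Bex1 had 201, 213 and 220 CPM in controls and 95.8, 73.9 and 91.3 CPM at 2 days.

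The largest ratios of counts were in the Serpinb9 cluster on chromosome 13, whose genes encode inhibitors of serine proteases such as granzyme B. Serpinb9g (GRCm38, 33484790 to 33496004, plus strand) had 102, 122 and 104 counts in controls and 0, 0 and 1 at 2 days, a ratio of 347 with a 95% counting interval of 61.9 to 13759. Serpinb9f had 36, 55 and 34 counts and then 0, 0 and 1, and Gm11397, which RefSeq calls Serpinb9h, had 43, 62 and 48 and then 0, 0 and 1. The 2 genes next to Serpinb9f, below the expression filter and so not tested, were also lower: Serpinb9d had 32 counts over the controls and Serpinb9e had 23, and both had 0 at 2 days, which is at least 11.3-fold and 8.12-fold lower with the 0 set at 3 counts over the group. The first 2 genes of the cluster were not called, with 1280 and 1523 counts over the groups for Serpinb9 (edgeR adjusted p = 0.26) and 4057 and 3935 for Serpinb9b (edgeR adjusted p = 0.29). At 7 days Serpinb9g had 3, 2 and 2 counts and Serpinb9f 6, 6 and 3, while Serpinb9e had 9, 13 and 9, near its 6, 14 and 3 in the controls. Serpinb9f and Serpinb9g are named under the rule for lists, and the others were chosen after their values were seen.

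Upstream sequences were compared for 6 of these genes, Gm11397 not among them. Over 250 bases before the RefSeq start (GRCm38.p6), Serpinb9g matched Serpinb9e in 92.9% of aligned columns, Serpinb9d in 87.8% and Serpinb9f in 87.4%, but Serpinb9b in 41.6% and Serpinb9 in 43.8%. The stretches below are from the plus strand, Serpinb9g at chr13:33484540-33484789, Serpinb9f at chr13:33323827-33324076 and Serpinb9b at chr13:33027164-33027413. They show 2 genes that fell to near 0 and 1 that did not, and capitals mark the longest run of bases, 72, that Serpinb9g and Serpinb9f share without a difference.
Serpinb9g: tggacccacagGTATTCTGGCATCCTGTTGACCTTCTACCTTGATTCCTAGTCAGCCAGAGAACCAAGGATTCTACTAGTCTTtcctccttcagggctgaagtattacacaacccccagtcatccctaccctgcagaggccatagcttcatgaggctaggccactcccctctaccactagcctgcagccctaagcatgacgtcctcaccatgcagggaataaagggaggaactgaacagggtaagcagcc
Serpinb9f: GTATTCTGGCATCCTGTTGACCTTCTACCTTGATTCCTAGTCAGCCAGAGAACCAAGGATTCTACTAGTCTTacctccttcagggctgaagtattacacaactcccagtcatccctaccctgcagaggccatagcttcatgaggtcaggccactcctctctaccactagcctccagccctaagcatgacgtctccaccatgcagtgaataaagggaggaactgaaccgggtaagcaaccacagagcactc
Serpinb9b: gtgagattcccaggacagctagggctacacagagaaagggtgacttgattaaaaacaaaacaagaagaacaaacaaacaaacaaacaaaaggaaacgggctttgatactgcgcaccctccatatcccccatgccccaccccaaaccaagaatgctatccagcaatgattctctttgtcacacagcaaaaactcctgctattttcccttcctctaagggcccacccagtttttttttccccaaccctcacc
The longest run that Serpinb9g shared with Serpinb9b was 7 bases. Whether this likeness bears on the counts was not tested.

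**Figure D4:**
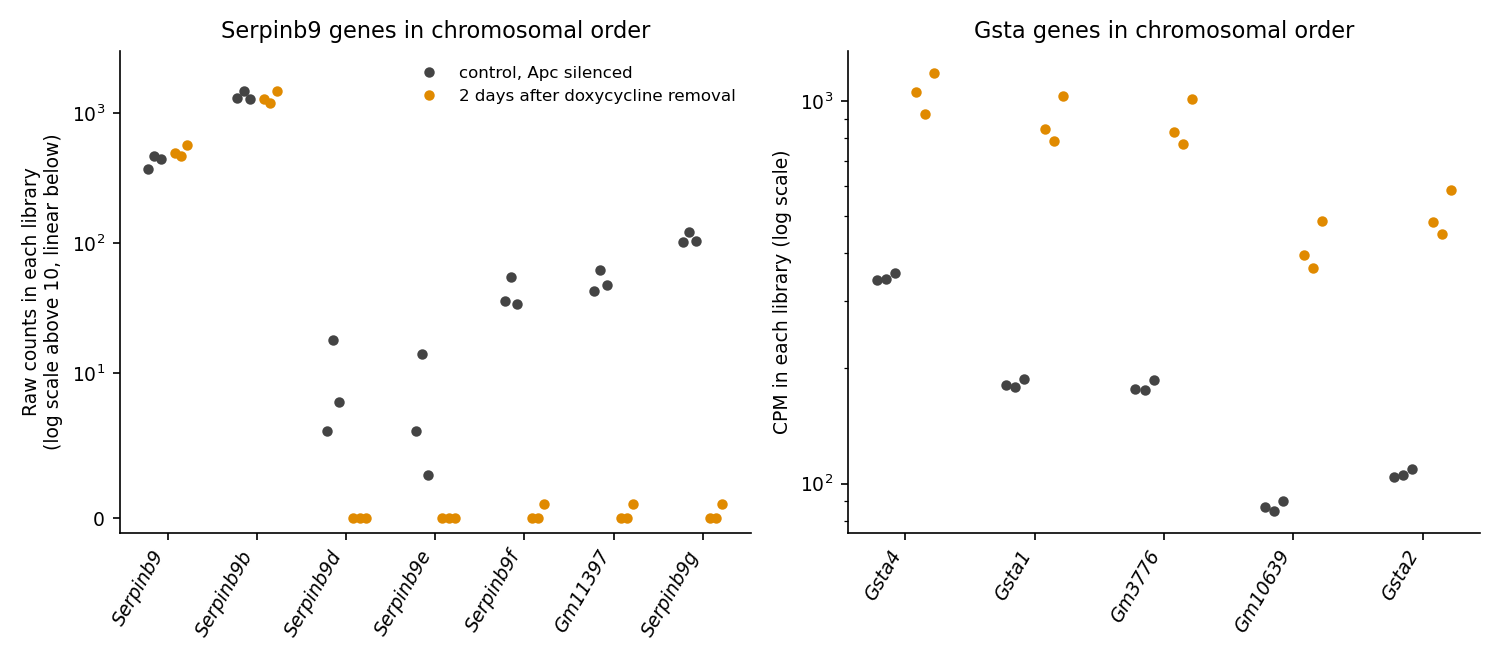
Left, raw counts of 7 Serpinb9 genes in chromosomal order in each control library (grey) and 2-day library (orange), on an axis that is linear below 10 and logarithmic above; 5 genes drop to 0 or 1 count, while Serpinb9 and Serpinb9b keep theirs. Right, CPM of 5 Gsta genes in chromosomal order on a log scale, where every 2-day library lies above every control library.

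Another block lay on chromosome 4, where genes of secreted phospholipases A2, enzymes that release fatty acids from membranes and kill bacteria, fell together. Pla2g2a had 148, 246 and 201 counts in controls and 19, 15 and 14 at 2 days, Pla2g5 had 28, 47 and 22 and then 2, 4 and 2, and Pla2g2f had 21, 24 and 20 and then 6, 3 and 3. None of the 3 had a count at 7 days. Pla2g5 and Pla2g2a overlap in the annotation, so without strand their reads cannot be told apart. Ptgs1, cyclooxygenase 1, which uses the released arachidonic acid, fell from 136, 140 and 124 CPM to 36.6, 36.7 and 34.5 CPM. Over the whole list of 42 prostaglandin and eicosanoid genes 8 were higher and 7 lower (3 higher and 4 lower among genes with a mean of at least 5 CPM).

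Biosynthesis for growth fell by small amounts in many members. Of 24 enzymes of serine, glycine and one-carbon metabolism, which feed purine and thymidine synthesis, 11 were lower and none higher, with a median log2 fold change of −0.29. At an unadjusted p under 0.05, edgeR had 14 lower and 1 higher, and limma-voom and DESeq2 called 11 and 12 members. Mthfd1, which interconverts folates, had 368, 369 and 331 CPM in controls and 253, 260 and 233 CPM at 2 days (log2 fold change −0.52 ± 0.08, edgeR adjusted p = 0.00021). Shmt1 fell from 119 to 87.9 CPM, Phgdh, the first enzyme of serine synthesis, from 630 to 444 CPM and Shmt2 from 459 to 320 CPM, the last 2 named after their values were seen. Of 34 genes of nucleotide and polyamine synthesis 18 were lower and 3 higher (11 lower without control replicate 2, 1 higher without control replicate 1 or 2), with a median of −0.24. CTP synthase, Ctps, fell from 209, 209 and 200 CPM to 164, 155 and 154 CPM, the pyrimidine enzyme Umps from 172 to 131 CPM and the guanine nucleotide enzyme Impdh1 from 190 to 133 CPM. Spermidine synthase, Srm, chosen after its values were seen, fell from 309 to 216 CPM.

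Amino acid synthesis enzymes and aminoacyl-tRNA synthetases were lower in 10 and higher in 1 of 35, and the lower count ran from 6 without control replicate 1 or 2 or 2-day replicate 3 to 19 with the GC trend removed and 20 under the replicate block. Ornithine aminotransferase, Oat, fell from 332, 354 and 354 CPM to 238, 228 and 235 CPM and argininosuccinate synthase, Ass1, from 39.6 to 22.7 CPM. The 2 alanine aminotransferases crossed: the cytosolic Gpt rose from 2.02 to 4.12 CPM and the mitochondrial Gpt2 fell from 12 to 7.65 CPM.

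Cytoplasmic ribosomal protein genes were not called. Of 81 cytoplasmic ribosomal protein genes 0 were higher and 0 lower in edgeR, with 2 lower at an unadjusted p under 0.05, 1 call in DESeq2 and 0 in limma-voom. Their summed level was 64300 to 68000 CPM in controls and 56600 to 66000 CPM at 2 days, with 2-day replicate 2 the lowest. Of 77 mitochondrial ribosomal protein genes 1 was higher and 3 lower (0 lower without control replicate 1 or 2, 0 higher without any of control replicates 2 and 3 and 2-day replicates 1 and 3). The 13 protein genes of the mitochondrial genome summed to 8920, 10100 and 12300 CPM in controls and 8610, 9320 and 11500 CPM at 2 days, so the groups overlapped. Mitochondrial Nd2, mt-Nd2, was the 1 called lower, a call lost under library size alone (edgeR adjusted p = 0.073), on leaving out control replicate 2 (0.075) or 3 (0.12), and on leaving out 2-day replicate 1 (0.15) or 2 (0.085). Hsp90ab1, a cytosolic chaperone, had the largest loss in CPM among called genes, from 5267 ± 491 to 4057 ± 320 CPM (SD, n = 3), but its call was lost without control replicate 1 (edgeR adjusted p = 0.093), control replicate 2 (edgeR adjusted p = 0.1) or 2-day replicate 3 (edgeR adjusted p = 0.089).

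Many histone genes rose, though few of the H2A class did. Of 66 tested 40 were higher and 0 lower, with a median log2 fold change of 0.55, and in 44 of them every 2-day library lay above every control (39.3% of all tested genes did not overlap in either direction). Near-identical copies share reads: 11 members had counts within 5% of another member's in all 6 libraries, and with each such set counted once 37 of 60 were higher. At an unadjusted p under 0.05, edgeR had 45 higher and 1 lower, and limma-voom and DESeq2 each called 39. Hist1h1c, a linker histone, had 97.7, 93 and 86 CPM in controls and 168, 156 and 160 CPM at 2 days (log2 fold change 0.81 ± 0.09, edgeR adjusted p = 7.6e-06). Hist1h2bc went from 39.4, 40.1 and 43 CPM to 64.8, 67.1 and 75.3 CPM and Hist3h2a from 1.72 to 3.8 CPM. By class, 14 of 17 H2B genes, 11 of 12 H4 genes, 8 of 12 H3 genes and 4 of 6 H1 genes were higher, and 3 of 19 H2A genes, whose median was −0.11. The summed H2A level was 1459, 1488 and 1382 CPM in controls and 1471, 1319 and 1429 CPM at 2 days, so the groups overlapped. The difference between classes was not tested.

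The libraries differed in how far the histone genes rose. The median of the 66 stood at 0.43, 0.38 and 0.55 above the control mean in the 3 2-day libraries on the log2(CPM + 0.5) scale, and at −0.02 to 0.01 in the controls. Without 2-day replicate 3, the highest, 26 were called. Among genes with a mean of at least 5 CPM 19 were called higher. Most histone messages end in a stem-loop and carry no poly(A) tail, and these libraries were made from poly(A) RNA, so the levels describe the tailed part of the histone messages.

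**Figure D5:**
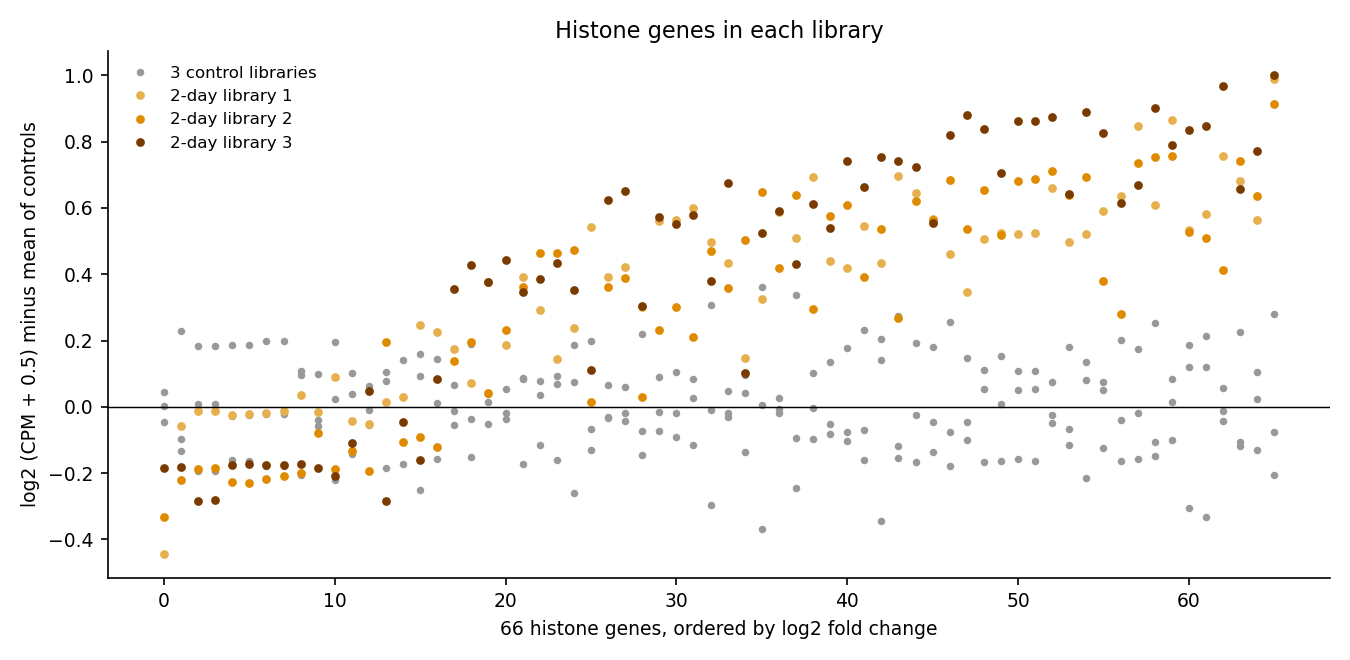
Level of each of 66 histone genes in each library, as log2(CPM + 0.5) minus the mean of the controls (y axis), with genes ordered along the x axis by their log2 fold change. Grey points are the 3 control libraries and the 3 shades of orange to brown the 2-day libraries; toward the left the libraries overlap, and toward the right the 2-day points lie above the controls.

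Of 57 cell cycle regulators 7 were higher and 7 lower (12.3% each), close to the shares of all tested genes (13.1% and 10.6%). The lower count was 4 without control replicate 2 or 2-day replicate 1, and 14 with the GC trend removed. Cdkn2b, the p15 inhibitor of cyclin-dependent kinases, went from 11.9, 12.8 and 12 CPM to 31.2, 29.2 and 32.9 CPM (log2 fold change 1.34 ± 0.08, edgeR adjusted p = 1.4e-08), while E2f2, an activator of S phase genes, also rose, from 33.3, 32.9 and 30.4 CPM to 58.9, 67.6 and 59.7 CPM. Cyclin D1, Ccnd1, a Wnt target, fell from 903, 908 and 889 CPM to 627, 670 and 603 CPM. Of 140 chromatin-modifying enzymes 6 were higher and 21 lower (12 lower without control replicate 2, 13 without 2-day replicate 1 or 3, 33 with the GC trend removed). The remodeller Chd9 was among those that rose, from 325 to 566 CPM, as was the demethylase Kdm7a, from 6.48 to 13.8 CPM. The DNA methyltransferase Dnmt3b fell from 10.9 to 6.59 CPM and the Polycomb subunit Cbx2 from 22.9 to 15.1 CPM.

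Signals between cells changed in both directions, often within 1 family. Of 33 semaphorins, netrins, Slits and their receptors, guidance cues that also act between epithelial cells, 8 were higher and 7 lower (5 higher with a mean of at least 5 CPM). Sema4g went from 24.2, 23.5 and 22.3 CPM to 66.4, 86.7 and 76.4 CPM, and Sema4a, Sema3e and Sema4b rose 2.18-fold, 2.26-fold and 1.62-fold. Sema7a, Sema5a and Sema3f, named after their values were seen, fell 2.59-fold, 2.28-fold and 1.78-fold. Ephrins, membrane ligands that sort crypt cells by position, were called in both directions: Efnb1 rose from 42.5 to 72 CPM and Efnb2 from 43.1 to 75.8 CPM, whereas Efna3 fell from 3.37 to 1.06 CPM and Efna4 from 5.38 to 1.96 CPM. Efna1 rose from 9.11 to 11.5 CPM, a call lost without control replicate 1 (edgeR adjusted p = 0.057), 2-day replicate 1 (edgeR adjusted p = 0.053) or 2-day replicate 3 (edgeR adjusted p = 0.054). Their receptors Ephb2 and Ephb3 fell 1.45-fold and 1.42-fold, and Epha2 stood at 394 ± 38.1 and 408 ± 34.4 CPM (SD, n = 3; edgeR adjusted p = 0.75). In all, 3 of 15 were higher and 4 lower (2 lower with a mean of at least 5 CPM).

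The TGF-beta, activin and BMP list had 7 higher and 7 lower of 40 (4 lower with a mean of at least 5 CPM). The ligand Bmp3 went from 1.66, 2.04 and 2.02 CPM to 7.75, 8.44 and 8.44 CPM, and follistatin, Fst, which binds activin, fell from 19.5, 19.9 and 22.6 CPM to 8.67, 9.28 and 8.5 CPM. Of growth factor genes, Pdgfa rose from 14.6 to 32 CPM and Pdgfb from 6.26 to 10.7 CPM, and Mst1r, a receptor tyrosine kinase of epithelia, from 18.4 to 34.2 CPM. Insulin receptor substrate 1, Irs1, fell from 3.63 to 1.4 CPM, and Igfbp4, which binds insulin-like growth factors, from 129 to 68.5 CPM. Of 22 genes of heparan sulphate, the surface sugar that holds Wnt and growth factors, 6 were lower and 1 higher (0 higher without control replicate 1 or 2 or 2-day replicate 3). Sulf2, which removes its sulphate groups, had 257, 255 and 222 CPM in controls and 107, 116 and 94.9 CPM at 2 days (log2 fold change −1.21 ± 0.10, edgeR adjusted p = 3.2e-07), and the core proteins Hspg2 and Gpc4 fell 1.77-fold and 1.36-fold.

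Higher calls outnumbered lower ones in the chemokine and immediate early lists, while the TNF family was called in both directions. Over all tested genes 13.1% were higher and 10.6% lower. Cytosolic heat shock genes had more lower calls, with 4 higher and 13 lower of 72. Under the alternatives 1 to 6 of them were higher and 3 to 21 lower. Of 53 chemokine, interleukin and receptor genes 14 were higher and 5 lower (6 higher with a mean of at least 5 CPM). Cx3cl1, a membrane-bound chemokine, rose from 26.2 to 62.3 CPM, and Lifr, the receptor for leukaemia inhibitory factor, fell from 8.3, 8.75 and 9.34 CPM to 1.62, 2.46 and 2.42 CPM. Of 24 TNF family ligands and receptors 5 were higher (3 without control replicate 2 or 2-day replicate 1 or 3) and 4 lower. Tnf went from 4.13, 3.79 and 4.01 CPM to 9.43, 9.14 and 9.76 CPM, and osteoprotegerin, Tnfrsf11b, fell from 12.9 to 3.97 CPM. Of 27 immediate early genes 9 were higher and none lower, with 1 lower once the GC trend was removed. Fos rose from 13.1, 10.9 and 11.3 CPM to 20.9, 21.9 and 19 CPM, and Klf6 and Ier5 rose 1.53-fold and 1.5-fold.

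Of 42 Bcl2 family and apoptosis genes 12 were higher and 3 lower (1 lower without control replicate 1 or 2-day replicate 2). The inflammatory caspases Casp1 and Casp4 went from 16.1 to 33 CPM and from 5.1 to 12.7 CPM, and Gsdme, a gasdermin that forms membrane pores when cleaved, from 5.75, 5.62 and 5.47 CPM to 10.8, 10.5 and 11.5 CPM (log2 fold change 0.96 ± 0.09, edgeR adjusted p = 2e-06). Clock genes were higher in 3 and lower in 6 of 19 (1 higher without control replicate 1 or 2 or 2-day replicate 2, 3 lower without control replicate 2). The repressor Nr1d1 went from 22.7, 23.2 and 18.6 CPM to 10.7, 13.8 and 11.1 CPM and the activator Npas2 from 11.4 to 7.08 CPM, while the clock output Dbp rose from 0.982 to 2.22 CPM. The time of day of collection is not stated in these sources.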

How the data were processed

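RNA was measured by poly(A) sequencing in 9 samples of 1 organoid line. Per the labels' protocols, NEBNext Ultra II RNA reagents were used; this version of the kit keeps no strand, and overlapping genes cannot be separated. The values used are the raw counts that the authors deposited, as whole numbers of reads for each gene. STAR 2.7.0e, featureCounts, DESeq2, mm10 and GRCm38 are named in the submitters' processing notes. No source used here gives the annotation or the handling of reads with several matches. Of 21253 gene IDs 21236 were found in GENCODE M21 (GRCm38), which gave symbols and coordinates.

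Counts were filtered with filterByExpr on all 9 samples (12535 genes kept) and scaled with TMM. They were fitted in edgeR 4.0.16 under R 4.3.3 with glmQLFit and glmQLFTest. The fit was on all 9 samples with the group alone, so that 7-day samples shared the estimate of the spread. The filter counted the 7-day samples too, so a gene could be tested through its 7-day counts alone. Cyp2c40, chosen after its values were seen, had 0 counts in each control library and 3, 8 and 5 at 2 days. At 7 days it had 254, 341 and 350. Such genes add to the number tested and can add to the higher calls, most of all in lists of weakly expressed genes. The test was two-sided, with Benjamini-Hochberg adjustment over all 12535 genes, and the SE was the absolute log2 fold change over the square root of F. The code was also run on counts simulated from these libraries (12135 genes). It recovered 97% of 67 genes changed by 1.5-fold, 98.5% of 67 changed by 2-fold and 100% of 66 changed by 4-fold. Of its calls, 3.43% were false. The changed genes were drawn only from those with higher simulated counts, and every gene was given the same dispersion. Far fewer genes were changed than were called in the data. Recovery by expression level was not tested, and these shares may not hold for weakly expressed genes or for the data. No 2 libraries of a group agreed within sampling noise (chi-square per degree of freedom 4.24 to 23.3).

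The gene lists (73) and their members were chosen with earlier results of these data known, and each was described by its counts and median with no test of the list. Named genes were the 15 largest rises and 15 largest falls with at least 5 CPM in the higher group and no overlap, the same outside the Wnt and cell type lists, the 10 largest gains and losses in CPM, up to 4 called members per list and all members of lists of at most 15, less those left out for space. Others are said to be chosen after their values were seen. Promoter windows and their sequences are from RefSeq. Identities come from global alignment (match 1, mismatch −1, gap −3 and −0.5 for each further base). Some genes are not reported here. Counting intervals are exact and cover counting error only.

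The alternatives tried were scaling by DESeq2 size factors or by library size alone, no filter, a mean of at least 5 CPM, only the 6 libraries, limma-voom (limma 3.58.1), the DESeq2 1.42.0 Wald test, a block on the replicate number, removal of a GC trend, each library left out in turn and, for promoters, a shorter motif.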

Additional observations from a re-analysis of the deposited data

How the results depend on the processing

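Of the 1636 genes called higher and 1333 called lower, the counts under the 9 alternatives other than leaving out a library were 1251 to 2076 higher and 1001 to 2065 lower. Removing the GC trend gave 2065 lower, over 1.5 times the main count, with 1958 higher; the cause was not tested. Leaving out 1 library at a time gave 1184 to 1781 higher and 809 to 1517 lower, the lowest in both without control replicate 2. With the replicate number as a block, 2076 were higher and 1963 lower. The labels do not state that the numbers pair the samples. Deviations of same-numbered libraries correlated at 0.138, 0.0181 and 0.188. Control replicates 1 and 3 correlated best with the 2-day library of their own number, a hint from the data and not the design. Control replicate 2 was level between 2-day replicates 1 (0.0177) and 2 (0.0181). DESeq2 called 1661 higher and 1374 lower and limma-voom 1621 and 1348. Of 320 called genes named or listed for naming, 293 kept their call and direction under each of the 18 alternatives that could test them, 27 lost it in at least 1 and none turned. These genes were picked mainly for a large change or a small p, so their stability does not speak for all calls. Of 2628 list counts under the alternatives 246 moved by over 1.5 times. The minimum mean of 5 CPM left fewer members tested, so smaller counts under it can be genes not tested and not calls lost. With the shorter CTTTG the share of promoters was 59.9% for genes lower by over 2-fold and 61.8% for those higher, against 8.55% and 2.91% with the core. Depth limits Serpinb9d and Serpinb9e, whose 0 counts at 2 days allow only a lower bound on the ratio.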

Other observations

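A run on chromosome 6 put Apobec1, which edits the messenger RNA of apolipoprotein B in the intestine, between 2 genes read at under 1 CPM. Apobec1 had 11.3, 12 and 13.3 CPM in controls and 31.8, 34 and 39.5 CPM at 2 days (log2 fold change 1.52 ± 0.10, edgeR adjusted p = 5.3e-08), with no overlap between groups, and was chosen after its values were seen. Of the imprinted growth genes tested, Slc22a18, an organic cation carrier, rose from 7.07, 6.6 and 5.15 CPM to 13.7, 13.2 and 13.9 CPM. Its neighbour in the same imprinted region, Phlda2, fell from 44.5 to 34.8 CPM, and Cdkn1c stood at 5.39 ± 0.428 and 4.95 ± 0.216 CPM (SD, n = 3; edgeR adjusted p = 0.49). Of 12 such genes 2 were higher (1 without control replicate 2 or 3 or 2-day replicate 2) and 4 lower (2 lower with a mean of at least 5 CPM).

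Of 8 tested Hedgehog pathway genes 1 was higher and 1 lower, close to the shares of all tested genes (13.1% and 10.6%). The receptor Smo fell from 3.06 to 2.07 CPM and the ligand Ihh rose from 0.998 to 1.67 CPM, a call lost without control replicate 2 (edgeR adjusted p = 0.079) or 2-day replicate 2 (edgeR adjusted p = 0.064), and the target Ptch1 stood at 18.2 and 16.1 CPM (edgeR adjusted p = 0.29).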
